A study of Homo sapiens with 7 samples.

Results

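The data compare SNU398 cells given PEN-MUT, a peptide described for this study as the mutated control form, with cells given PEN, the penetratin carrier alone. SNU398 is an established line from a human liver cancer (hepatocellular carcinoma), and it makes SALL4, a DNA-binding zinc finger protein of embryonic cells. Both libraries came from cells grown in RPMI with fetal bovine serum and exposed to 30 µM of peptide for 8 hours, and total RNA was extracted with Trizol. The same medium, dose and time were used for the libraries of PEN-WT, the carrier with the unmutated SALL4 segment, and PEN-FFW, an engineered variant. The difference in each gene was taken as the log2 value of PEN-MUT minus that of PEN, centred on the median gene. Of the 23710 genes in the table, 12578 averaged 50 or more normalized counts across the 4 RNA libraries, and these are the genes described. There was 1 library for each peptide, so no test between peptides was possible and no p-value is given. None of the 4 RNA libraries is from untreated cells, so a gene lowered with PEN-MUT and a gene raised with PEN cannot be told apart.

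PEN is a short basic peptide that crosses membranes and carries other peptides into cells. The segment joined to it in PEN-WT is the stretch of SALL4 through which it contacts RBBP4, which belongs to the NuRD complex, which removes acetyl groups from histones. The mutated form serves as the control for that binding, and PEN-MUT against PEN sets the controls against each other.

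Many of the abundant genes farthest apart between the controls belong to the early response to growth factors. In that response receptors activate the kinases RAF, MEK and ERK, and ERK phosphorylates factors already bound at promoters. Immediate early genes such as EGR1 and FOS are then transcribed within minutes, without new protein synthesis, from promoters that hold serum response elements, whose core is the CArG box bound by serum response factor (SRF). A later group codes for proteins that shut the same route down: the DUSP phosphatases remove phosphate from ERK, and the Sprouty and SPRED proteins act upstream of it. The level of DUSP6 is widely used as a readout of ERK activity for that reason.

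EGR1 and DUSP6 were the genes lowest in PEN-MUT relative to PEN, and the 250 bases before their starts are shown to set the letters of these promoters side by side. The sequences are from RefSeq in build GRCh38.p14, 5′ to 3′ on the strand of the gene, with CArG boxes in capitals. The EGR1 stretch lies at chr5:138465229-138465478 on the plus strand and the DUSP6 stretch at chr12:89352502-89352751 on the minus strand.
EGR1: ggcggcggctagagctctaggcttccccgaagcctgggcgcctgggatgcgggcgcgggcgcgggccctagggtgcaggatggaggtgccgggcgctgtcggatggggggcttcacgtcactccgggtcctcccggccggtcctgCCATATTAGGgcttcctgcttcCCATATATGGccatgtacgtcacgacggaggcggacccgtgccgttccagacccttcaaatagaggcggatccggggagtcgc
DUSP6: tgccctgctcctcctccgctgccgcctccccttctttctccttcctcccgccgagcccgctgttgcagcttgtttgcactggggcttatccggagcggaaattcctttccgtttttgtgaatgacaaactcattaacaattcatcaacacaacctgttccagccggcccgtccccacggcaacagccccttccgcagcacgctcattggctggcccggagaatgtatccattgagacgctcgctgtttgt
EGR1 had 2 CArG boxes, CCATATTAGG beginning 105 bases and CCATATATGG beginning 83 bases before the start. In DUSP6 the search found none, and it found none of the ETS motif CCGGAA, the cAMP response element TGACGTCA or the AP-1 motif TGANTCA, each searched on both strands over 300 bases that ran to 50 bases past the start. The E-box CACGTG was searched as well and was found in neither gene. In EGR1 the ETS, cAMP response element and AP-1 motifs were not found either. The same search found no CArG box in the windows of FOS, JUNB, SPRY4 and IER2. A CArG box occurred in 103 (1.03%) of the 10017 windows available for tested genes, the ETS motif in 30.6%, the E-box in 10.4%, the AP-1 motif in 4.03% and the cAMP response element in 3.44%. Windows were at hand for 40 of the 60 genes at least 1.5-fold lower in PEN-MUT. That is under 80% of them, so a share of motifs over those genes is void. The 10017 windows are also just under 80% of the 12578 tested genes, so the shares above describe only genes with a window. A missing match says only that these letters are not in this window.

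The differences were small for nearly all genes. Of the 12578 genes, 54.8% were within 0.1 log2 of the median gene, 81.8% within 0.2 and 98.4% within 0.5. The 5th percentile was -0.28 and the 95th 0.25. At least 1.5-fold lower in PEN-MUT were 60 genes (0.477% of those tested), and 41 genes were at least 1.5-fold higher (0.326%). Without centring, as the authors scaled the table, these counts were 50 lower and 51 higher. At 2-fold there were 2 lower genes, EGR1 and DUSP6 (0.0159%), and 2 higher genes, HMGCLL1 and DKK3 (0.0159%). The median count with PEN and PEN-MUT was 104 for the lower genes and 88.3 for the higher ones, and 29 of the lower and 25 of the higher genes were under 100. Of the 60 lower genes 9 had a mean count of at least 1000 with PEN and PEN-MUT, against 1 of the 41 higher genes, and by the mean over the 4 libraries these counts were 8 and 3. Whether the lower and higher genes differed in abundance was not tested. Among all 6732 tested genes with a count of at least 1000, the shares past 1.5-fold were 0.134% lower and 0.0149% higher.

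A counting interval, the exact (Clopper-Pearson) 95% interval of the reads in the pair of libraries, is given after a difference in brackets. It covers counting error only, and cultures and library preparation add to the error by an unknown amount. It excluded 0 for 4368 tested genes (34.7%), for all 60 of the lower genes and for 40 of the 41 higher genes. The spread of the differences (the median absolute deviation put on the scale of an SD, in log2) shows how much wider than counting the libraries differed. It was 0.268 against a counting error of 0.239 in genes of 50 to 100 counts, 0.101 against 0.0353 in genes of 2000 to 5000, and 0.0571 against 0.0112 from 20000 up. At high counts a difference can therefore exclude 0 by counting and still sit inside the ordinary spread of genes. Of the 6 pairs of libraries PEN-MUT against PEN had the narrowest spread, at 0.132, next to 0.137 for PEN-WT against PEN-MUT. PEN-WT against PEN had 0.166 and PEN-FFW against PEN 0.255.

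**Figure D1:**
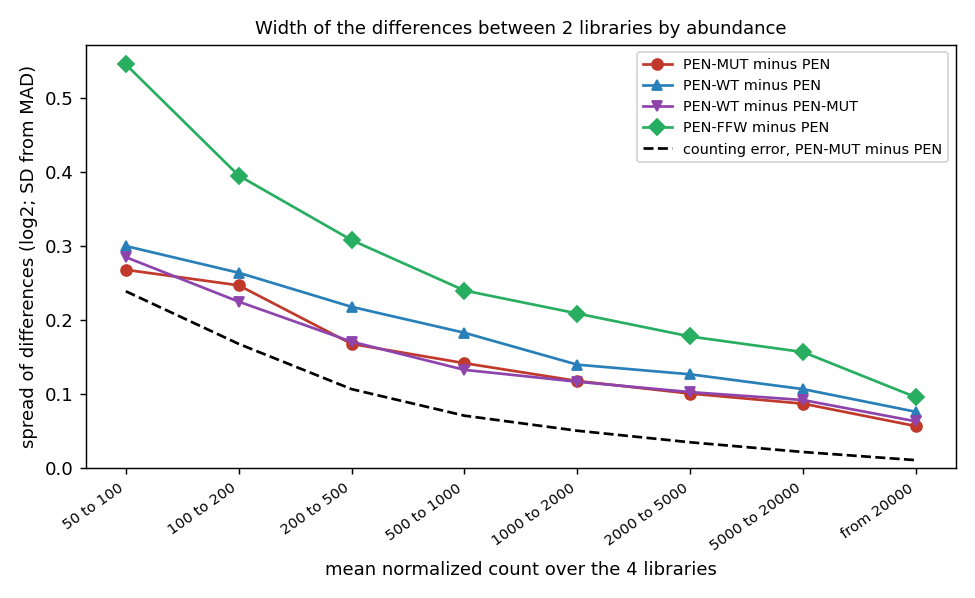
Spread of the log2 differences between 2 libraries (SD from the median absolute deviation, y axis) in classes of mean normalized count over the 4 libraries (x axis), for 4 of the 6 pairs, with the median counting error of PEN-MUT against PEN as a dashed line. PEN-MUT against PEN goes from 0.268 in the class of 50 to 100 counts to 0.0571 from 20000 up and lies above its counting error in every class.

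**Figure D2:**
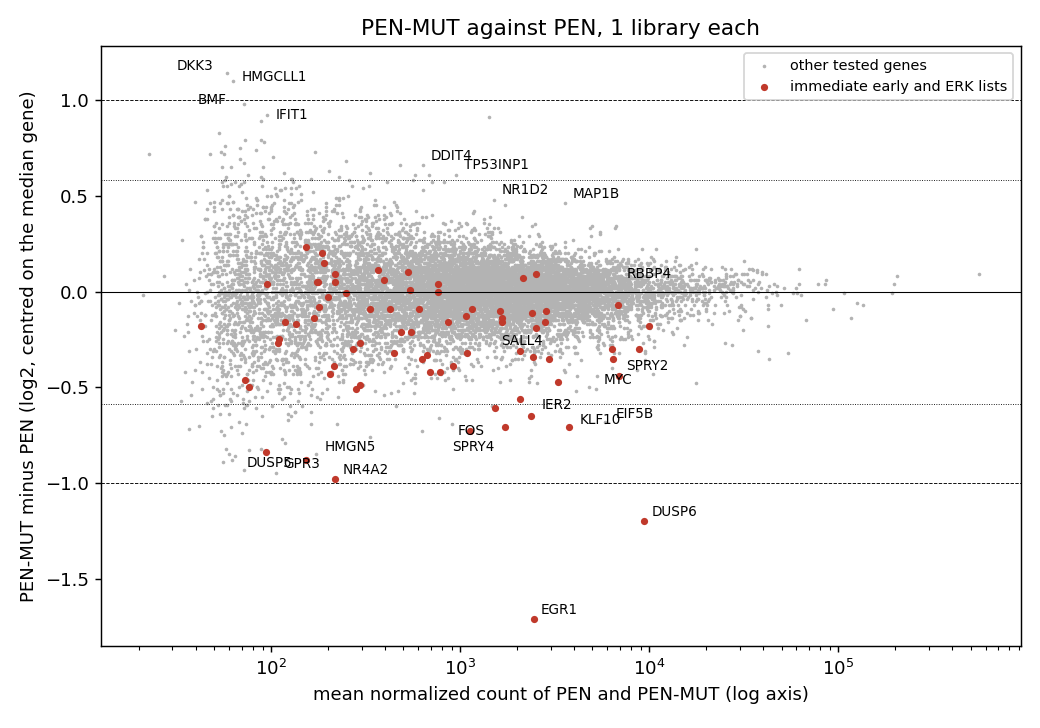
Log2 difference of PEN-MUT from PEN, centred on the median gene (y axis), against the mean normalized count of both libraries (log axis) for the 12578 tested genes, with members of the immediate early and ERK lists in red; dotted lines mark 1.5-fold and dashed lines 2-fold. EGR1 at -1.71 and DUSP6 at -1.20 stand apart at high counts, while HMGCLL1 and DKK3 lie past 2-fold where counts are low and the cloud is wide.

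EGR1, a zinc finger transcription factor and a classic immediate early gene, had 3726 normalized counts with PEN and 1153 with PEN-MUT. The PEN-WT library had 1437 and the PEN-FFW library 1252, so PEN was the high library. The difference of PEN-MUT from PEN was -1.71 [-1.81 to -1.62], a level 3.28-fold lower. Normalized counts are printed as the authors scaled them, and on that scale the median tested gene of PEN-FFW lies at -0.28 from that of PEN, so orders that involve PEN-FFW were read from centred differences. The gene lies at 137801168 to 137804992 on the plus strand of chromosome 5 (GRCh37).

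FOS, the partner of JUN in the transcription factor AP-1, had 2117 normalized counts with PEN, 1317 with PEN-MUT, 1184 with PEN-WT and 739.5 with PEN-FFW. Its difference was -0.71 [-0.80 to -0.61]. JUNB, another AP-1 member, had 2453 with PEN, 1687 with PEN-MUT, 1583 with PEN-WT and 1244 with PEN-FFW, a difference of -0.56. KLF10, a repressor induced early by TGF-beta and growth factors, had 4618, 2870, 2724 and 1910 in the same order, a difference of -0.71. In FOS, JUNB and KLF10 PEN was the highest library and PEN-MUT the next. FOSL1, an AP-1 member that accumulates while ERK stays active, stood at -0.84 [-1.28 to -0.42] on 120.1 counts with PEN and 68.0 with PEN-MUT. FOSB was at -0.42 (884.2 counts with PEN, 670.0 with PEN-MUT) and FOSL2 at -0.32 (1191 and 968.0). With PEN-WT the counts were 105.6 for FOSL1, 867.1 for FOSB and 1253 for FOSL2. In each of these PEN-WT lay nearer to PEN than to PEN-MUT.

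Members of the same list did not all lie low. JUN had 348.5 normalized counts with PEN and 381.0 with PEN-MUT, a difference of 0.11 [-0.10 to 0.31], and 679.2 with PEN-WT. ATF3, a stress-induced factor, was at 0.09. Among the 3 orphan nuclear receptors of the NR4A family only NR4A2 lay past 1.5-fold: it had 288.0 counts with PEN, 148.0 with PEN-MUT, 174.7 with PEN-WT and 273.3 with PEN-FFW, a difference of -0.98 [-1.27 to -0.70]. Centred, its PEN-FFW value stood at 0.20 from that of PEN. NR4A1 stood at -0.09 and NR4A3 at 0.05, and the intervals of both held 0. SRF itself, the factor that binds CArG boxes, was at -0.19. The 15 tested SRF and actin targets, most of them genes of the cytoskeleton, had a median of -0.06 with none past 1.5-fold.

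Of the 22 immediate early transcription factors 19 were tested. Of these 16 lay below the median gene, with a median of -0.32, 5 were at least 1.5-fold lower and 0 higher (0.477% and 0.326% of all tested genes), and for 14 the counting interval lay below 0. Over all tested genes 6289 of 12578 lie below the median gene by definition, and the interval excluded 0, in either direction, for 34.7%. The 28 other immediate early genes, which code for signalling proteins, RNA-binding proteins and secreted factors, had a median of -0.13 with 20 below the median gene. The nuclear protein gene IER2, with 2865 counts with PEN, 1855 with PEN-MUT, 1826 with PEN-WT and 1417 with PEN-FFW, was the only 1 of these past 1.5-fold (-0.65). MCL1, an anti-apoptotic BCL2 family gene with a short-lived product, was at -0.30 [-0.34 to -0.26] on 9691 counts with PEN and 7987 with PEN-MUT. The growth arrest genes BTG2 and GADD45A were at 0.15 and 0.20, with intervals that held 0.

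DUSP6 codes for the phosphatase that acts on ERK in the cytoplasm. It had 13038 normalized counts with PEN, 5774 with PEN-MUT, 3977 with PEN-WT and 3005 with PEN-FFW, with PEN highest and PEN-MUT between PEN and the other peptides. The difference of PEN-MUT from PEN was -1.20 [-1.24 to -1.15], a level 2.29-fold lower. PEN-WT stood a further -0.54 from PEN-MUT and PEN-FFW -0.64, each centred on its own pair. The gene lies at 89741012 to 89746278 on the minus strand of chromosome 12 (GRCh37).

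DUSP5, the nuclear ERK phosphatase, had 197.3 counts with PEN, 109.0 with PEN-MUT, 109.5 with PEN-WT and 96.0 with PEN-FFW, a difference of -0.88 [-1.22 to -0.54]. Here the centred differences from PEN of PEN-WT and PEN-FFW were -0.88 and -0.76. DUSP4 and DUSP2, also nuclear, were at -0.43 and -0.51, and DUSP1, which acts more on the stress kinases, at -0.21. DUSP16, a JNK phosphatase, was at 0.07 and DUSP14 at 0.04, both with intervals that held 0.

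SPRY4, a Sprouty protein that blocks signalling between receptor and RAF, had 1396 counts with PEN, 855.0 with PEN-MUT, 714.2 with PEN-WT and 691.5 with PEN-FFW, a difference of -0.73 [-0.85 to -0.61]. SPRY2 had 7882, 5905, 4522 and 3789 in the same order, a difference of -0.44 [-0.49 to -0.39]. SPRED1, which holds the RAS inhibitor neurofibromin at the membrane, was at -0.35 and SPRED2 at -0.31. ERRFI1, an inhibitor of the EGF receptor kinase, had 3808 counts with PEN and 2791 with PEN-MUT and stood at -0.47. In DUSP6, SPRY2 and SPRY4 PEN was the highest library. The centred differences of PEN-WT and PEN-FFW from PEN were -0.83 and -0.78 for SPRY2, both below that of PEN-MUT. For SPRY4 that of PEN-FFW was -0.74, level with PEN-MUT, and PEN-WT stood at -0.26 from PEN-MUT. In the negative feedback list as a whole 15 of 18 tested members lay below the median gene, with a median of -0.33 and 3 past 1.5-fold, where 0.477% of all tested genes were.

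**Figure D3:**
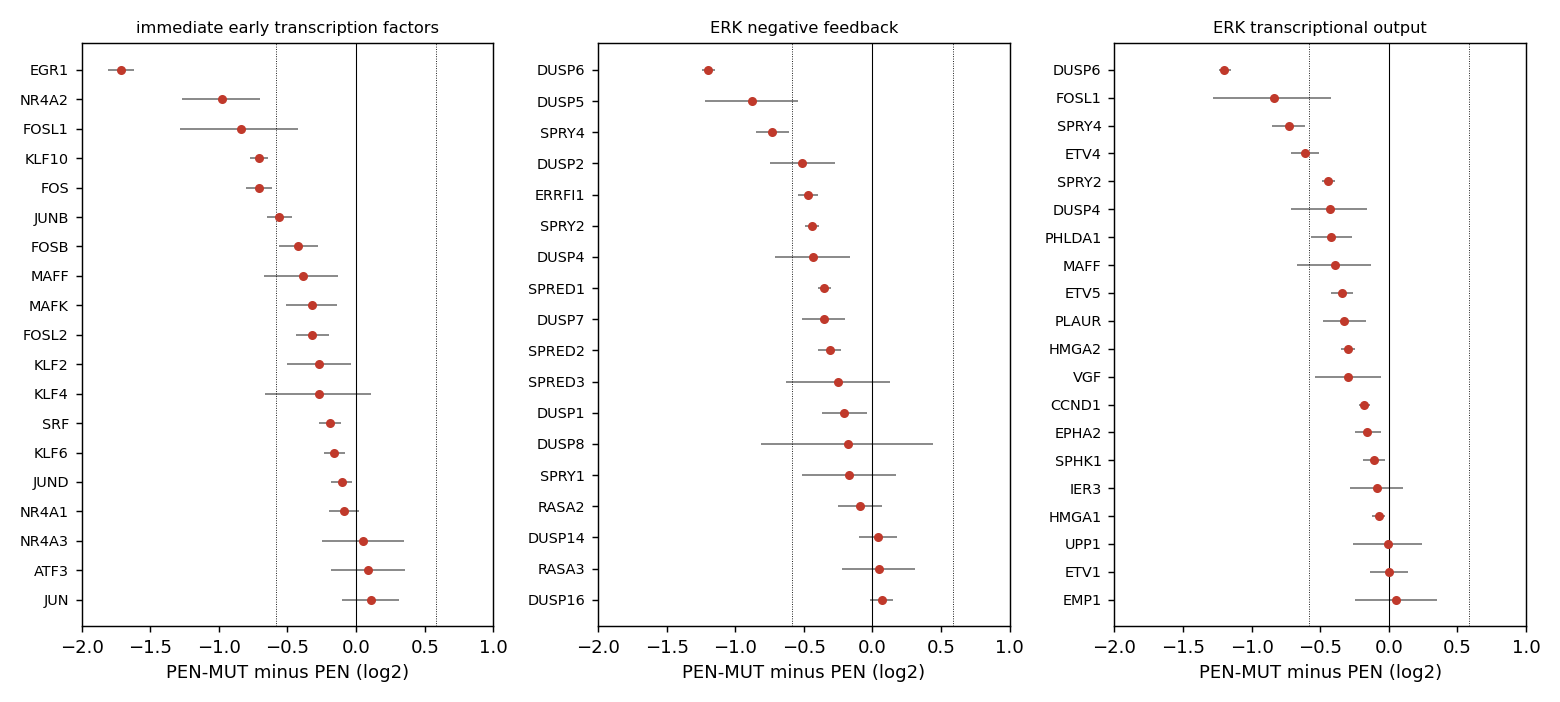
Log2 difference of PEN-MUT from PEN (x axis, centred on the median gene) for each tested member of 3 gene lists, with 95% counting intervals as bars and dotted lines at 1.5-fold. EGR1 (-1.71) and DUSP6 (-1.20) are farthest to the left, and JUN, ATF3, NR4A3 and DUSP16 lie just to the right of 0 with intervals that hold it.

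The ERK output list holds genes often used to score the activity of the pathway, and 9 of its tested members stand in the preceding lists as well. Of its 20 tested members 18 lay below the median gene, with a median of -0.31 and 4 at least 1.5-fold lower, against 0.477% of all tested genes. The ETS factors ETV4 and ETV5, which are induced by FGF and ERK signalling, had 1826 and 2691 counts with PEN against 1217 and 2161 with PEN-MUT, differences of -0.61 and -0.34. The third member of that ETS subfamily, ETV1, was at 0.00. CCND1, the cyclin that links growth factors to cell cycle entry, was at -0.18 [-0.22 to -0.14] on 10538 counts with PEN and 9460 with PEN-MUT.

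Components that carry the signal were near the median gene. The 30 genes of the RAS, RAF, MEK and ERK cascade and its transcription factors had a median of -0.02, with 16 below the median gene and none past 1.5-fold. ELK3, a partner of SRF, was at -0.38 and MRAS, a RAS relative, at 0.26. Of the 10 EGF receptor ligands 3 were tested (HBEGF -0.13, NRG2 -0.11, NRG4 0.34), each with an interval that held 0. The 16 tested growth factor receptors and FGF axis genes had a median of -0.04. EGFR stood at -0.43 [-0.78 to -0.08] on 148.6 counts with PEN and 112.0 with PEN-MUT. ERBB2, the far more abundant relative, stood at 0.29 [0.21 to 0.37] on 2340 counts with PEN, 2904 with PEN-MUT, 2878 with PEN-WT and 2598 with PEN-FFW.

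With members listed more than once counted once, the 4 immediate early and ERK lists (the cascade left out) held 76 tested genes. Of these 60 lay below the median gene and 16 above, with a median of -0.20. The counting interval lay below 0 for 45, above 0 for 1 and held 0 for 30. Over all tested genes it excluded 0, in either direction, for 34.7%. At least 1.5-fold lower were 10 (13.2%, against 0.477% of all tested genes), and 0 were higher. In the 30 of these with a count of at least 1000, 28 lay below the median gene and 7 were at least 1.5-fold lower, against 0.134% of tested genes of that abundance. Those 7 were among the 9 lower genes of that abundance in the whole table, and by the mean over the 4 libraries it was 6 of 8. The lists were drawn up with earlier results of these data known, so the counts describe them and are not independent support. The medians of the same 76 genes were -0.16 with PEN-WT and -0.20 with PEN-FFW against PEN, and all of these comparisons use the 1 PEN library.

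The other abundant lower genes were EIF5B and MOAP1. EIF5B, a GTPase that joins the ribosomal subunits at the start of translation, had 7122 counts with PEN, 4526 with PEN-MUT, 6675 with PEN-WT and 4204 with PEN-FFW, a difference of -0.68. PEN-MUT and PEN-FFW were the low libraries there. MOAP1, a partner of the pro-apoptotic protein BAX, had 1756, 1178, 1008 and 829.9 in the same order (-0.60). Among lower genes of moderate count, RGS16, which shortens G protein signalling, had 414.8 with PEN, 249.0 with PEN-MUT, 208.0 with PEN-WT and 159.7 with PEN-FFW (-0.76). HMGN5, a nucleosome-binding protein of the HMGN family, had 220.0 with PEN, 124.0 with PEN-MUT, 234.4 with PEN-WT and 156.9 with PEN-FFW (-0.85), with PEN-MUT the lowest library. DDTL, a near copy of the neighbouring gene DDT, stood at -0.77, and the authors' counting could split reads between the copies. JHDM1D, a lysine demethylase gene, was at -0.66 with 939.7 counts with PEN and 602.0 with PEN-MUT.

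MYC, a transcription factor that raises ribosome production and growth, had 6109 normalized counts with PEN and 4363 with PEN-MUT, a difference of -0.51 [-0.56 to -0.45]. The network around it was mixed. MNT, MLX and MAX were at -0.29, -0.24 and -0.20, whereas the MXD repressors MXD4 and MXD3 were at 0.33 [0.21 to 0.46] and 0.32 [0.14 to 0.50]. MXD4 had 849.0 counts with PEN, 1085 with PEN-MUT, 1283 with PEN-WT and 1032 with PEN-FFW. The median of the 11 tested members was -0.13. It was -0.05 where a mean count of 200 was required, -0.02 relative to genes of like GC content and 0.00 relative to genes of like transcript length, the last a setting chosen after the data were seen.

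Ribosome biogenesis factors process ribosomal RNA and assemble the subunits in the nucleolus, and many are targets of MYC. Of the 73 tested, 69 lay below the median gene, with a median of -0.20 and quartiles of -0.27 and -0.11. None was past 1.5-fold, and for 62 the counting interval lay below 0. Over all tested genes the interval excluded 0, in either direction, for 34.7%. These factors are abundant, with a median count of 3621 against 1134 for all tested genes, and at high counts intervals are narrow beside the ordinary spread. The lowest were PPAN (-0.43), GAR1 (-0.38), a protein of the snoRNPs that guide pseudouridine formation, and UTP3 (-0.37). Their counts with PEN and PEN-MUT were 271.2 and 205.0 for PPAN, 903.6 and 704.0 for GAR1 and 1384 and 1086 for UTP3. RIOK2, a kinase of late small subunit maturation, was highest at 0.07. The structural proteins of the cytosolic ribosome did not share this: 16 of 77 lay below the median gene and the median was 0.04. Relative to genes of like transcript length, a setting chosen after the data were seen, the median of these proteins was -0.00. The median of the 73 factors against PEN was -0.27 with PEN-WT and -0.34 with PEN-FFW, again with PEN in common.

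Small nucleolar RNAs guide the chemical modification of ribosomal RNA, and most lie in introns of other genes. Of the 103 tested snoRNA genes 87 lay below the median gene, with a median of -0.21 and quartiles of -0.38 and -0.08. At least 1.5-fold lower were 4 (3.88%) and 0 were higher, against 0.477% and 0.326% of all tested genes. Most snoRNA genes had low counts: by the mean over the 4 libraries 36 lay between 50 and 100, with 3 of the lower genes, and 41 between 100 and 200, with 1. Of all tested genes in these classes 29 of 917 (3.16%) and 15 of 1050 (1.43%) were at least 1.5-fold lower. The snoRNA shares, 3 of 36 and 1 of 41, lay above these on very few genes, and the difference was not tested. Among the lower snoRNA genes SNORD24 was at -0.86 and SNORD52 at -0.82, named after their values were seen. The snoRNA medians against PEN were -0.22 with PEN-WT and -0.03 with PEN-FFW. The strand setting is unknown, so reads of a snoRNA and of the intron around it cannot be told apart. In the list of nuclear noncoding RNAs and snoRNA host genes 14 of 16 lay below the median gene (median -0.10). MALAT1, an abundant nuclear RNA, had 47717 counts with PEN, 38131 with PEN-MUT, 48373 with PEN-WT and 60477 with PEN-FFW, a difference of -0.35 with PEN-MUT the lowest library. NEAT1, the scaffold of paraspeckles, stood at -0.31 with 1098, 897.0, 1141 and 1939 in the same order.

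Target genes of TGF-beta and BMP signalling, in which receptors act through SMAD factors, had a median of -0.23, with 13 of 17 below the median gene. Past 1.5-fold was 1 (KLF10), against 0.477% of all tested genes at least 1.5-fold lower. KLF10 and JUNB (-0.56), the lowest members, also stand among the immediate early factors. The ID genes, inhibitors of differentiation factors and direct BMP targets, were at -0.43 for ID2, -0.38 for ID4, -0.23 for ID1 and -0.15 for ID3. ID2 had 11898 counts with PEN, 8993 with PEN-MUT, 8353 with PEN-WT and 6425 with PEN-FFW. The feedback inhibitor SMAD7 was at -0.38 and its relative SMAD6 at 0.06.

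Among Notch targets only HES1, a repressor that oscillates and also responds to growth factors, lay past 1.5-fold. It had 781.8 counts with PEN, 478.0 with PEN-MUT, 421.5 with PEN-WT and 339.7 with PEN-FFW, a difference of -0.73 [-0.89 to -0.57]. HEY1 was at -0.36, while NRARP, another Notch target, was at 0.06 and the median of the 13 was 0.01. Of all tested genes 0.477% were at least 1.5-fold lower. Genes induced through cAMP and the factor CREB had a median of -0.21, with 10 of 13 below the median gene. Of these NR4A2, FOSB, NR4A1, NR4A3 and DUSP1 also stand in the immediate early or ERK feedback lists. NR4A2, described above, was the lowest at -0.98. GPR3, a receptor that raises cAMP without a ligand, had 139.4 counts with PEN, 73.0 with PEN-MUT, 75.3 with PEN-WT and 82.2 with PEN-FFW (-0.95 [-1.37 to -0.55]). SIK1 was next at -0.49, and PER1 was the highest at 0.27 with an interval that held 0. Of the YAP and TEAD targets 15 of 21 lay below the median gene, with a median of -0.09. CTGF was at -0.49 [-0.72 to -0.26] and NUAK2 at 0.57 [0.03 to 1.13] on 43.7 counts with PEN and 66.0 with PEN-MUT.

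Enzymes and transporters of glucose use divided. The transporter SLC2A3 had 2929 counts with PEN, 2131 with PEN-MUT, 1878 with PEN-WT and 1715 with PEN-FFW (-0.48 [-0.56 to -0.40]), and hexokinase HK2 had 2693, 2021, 1605 and 1546 in the same order (-0.44). The regulator PFKFB3 stood at -0.40 and PDK1, which restrains pyruvate oxidation, at -0.37. The median of the 31 tested glycolysis and hypoxia genes was 0.02, with 14 below the median gene and 17 above it, and the counting interval lay below 0 for 7 and above 0 for 7. The highest was PGAM1, a glycolytic mutase, at 0.23 [0.18 to 0.29], and the most abundant, GAPDH, was at 0.06.

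The 2 genes at least 2-fold higher in PEN-MUT had few reads. DKK3, a secreted protein of the Dickkopf family, had 36.1 normalized counts with PEN, 81.0 with PEN-MUT, 83.8 with PEN-WT and 76.6 with PEN-FFW, with PEN alone low. Its difference was 1.14 [0.59 to 1.71]. HMGCLL1, a lyase of ketone body synthesis, had 39.5 with PEN, 86.0 with PEN-MUT, 55.1 with PEN-WT and 28.6 with PEN-FFW, with PEN-MUT the highest library, and its difference was 1.10 [0.57 to 1.65]. With 10 added to each count before the log neither stayed past 2-fold. BMF, a BH3-only pro-apoptotic gene, had 47.9, 96.0, 112.6 and 86.8 in the order PEN, PEN-MUT, PEN-WT, PEN-FFW (0.98 [0.49 to 1.48]).

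Higher genes with more reads included stress and metabolic regulators. DDIT4, an inhibitor of the growth kinase mTORC1, had 488.7 normalized counts with PEN, 782.0 with PEN-MUT, 895.8 with PEN-WT and 653.6 with PEN-FFW, a difference of 0.66 [0.50 to 0.81]. TP53INP1, a p53 target that takes part in autophagy and cell death, had 749.9 with PEN, 1158 with PEN-MUT, 1234 with PEN-WT and 1037 with PEN-FFW (0.61 [0.48 to 0.73]). BCL6, a transcriptional repressor, had 260.3, 406.0, 466.5 and 376.7 in the same order (0.62 [0.40 to 0.84]). MAP2K6, the kinase that activates p38, had 537.4, 835.0, 791.0 and 613.9 (0.61). In DDIT4, TP53INP1, BCL6 and MAP2K6 PEN was the lowest of the 4 libraries.

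The rest of the highest genes of at least 100 counts ranged from DNAJC12, a chaperone partner (0.59), to PPM1K, the phosphatase that activates the breakdown of branched-chain amino acids (0.73). Between them were the adenosine receptor ADORA1 (0.70), the aquaporin AQP11 (0.68), ACBD4 (0.63), the semaphorin SEMA3B (0.62), PBXIP1 (0.61) and REEP1, a protein that shapes the endoplasmic reticulum (0.60). PPM1K had 126.8 counts with PEN, 214.0 with PEN-MUT, 256.9 with PEN-WT and 219.7 with PEN-FFW. The centred differences of PEN-WT and PEN-FFW from PEN were 0.37 and 0.41 for ADORA1 and 0.39 and 0.09 for DNAJC12.

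**Figure D4:**
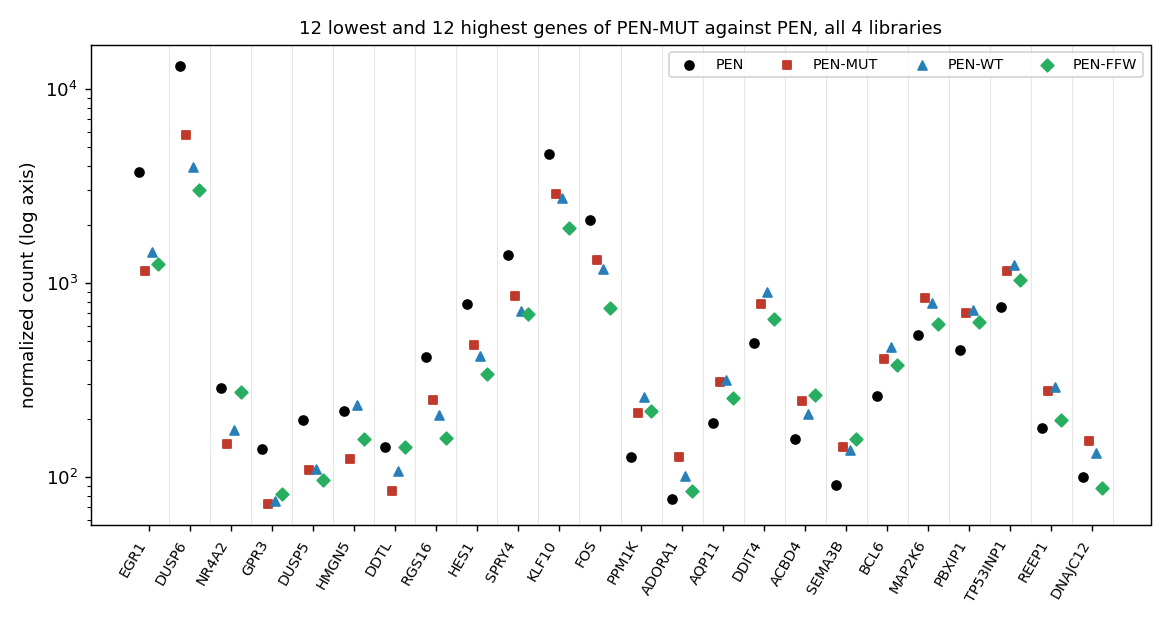
Normalized counts (log axis) in each of the 4 RNA libraries of the 12 lowest and the 12 highest genes of PEN-MUT against PEN with a mean count of at least 100, 1 library per peptide. PEN is the highest point for EGR1, DUSP6 and FOS and the lowest for DDIT4, BCL6 and TP53INP1, while for HMGN5 PEN-MUT is the lowest of the 4.

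At counts of 1000 and more the differences upward were smaller. NR1D2, a nuclear receptor of the circadian clock, had 1252 counts with PEN, 1774 with PEN-MUT, 1927 with PEN-WT and 1514 with PEN-FFW (0.48 [0.38 to 0.58]). DBP, a clock-controlled factor, had 564.3 with PEN and 853.0 with PEN-MUT (0.57 [0.43 to 0.72]). The 17 tested clock genes were mixed, with a median of -0.09, 11 below the median gene and 6 above it. The counting interval lay above 0 for 3 of them (DBP, NR1D2 and PER3, at 0.15) and below 0 for 3 (PER2 at -0.25, BHLHE40 at -0.23 and CLOCK at -0.15). MAP1B, a microtubule protein, had 2982 with PEN, 4169 with PEN-MUT, 2510 with PEN-WT and 7063 with PEN-FFW (0.46), so PEN-WT lay under PEN. HS1BP3 (0.45), SAT2 (0.42), MTMR4 (0.39), ZNF395 (0.39), the lysosomal nuclease DNASE2 (0.38), PLEKHH3 (0.36), TNK2 (0.36) and TAOK3 (0.35) completed the 10. The small RNA gene MIR3648, named after its value was seen, was the only higher gene past 1.5-fold with a count of at least 1000 over PEN and PEN-MUT. It had 971.6 with PEN and 1855 with PEN-MUT (0.91), against 8328 with PEN-WT and 11605 with PEN-FFW, and because its sequence recurs in the ribosomal DNA repeats its count is uncertain.

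Genes under FOXO control, which are held down by insulin and growth factor signalling through AKT, had a median of 0.11, with 15 of 20 above the median gene. Past 1.5-fold was 1 (BCL6), against 0.326% of all tested genes at least 1.5-fold higher. The median was 0.20 when genes with a mean count down to 10 were let in, and also with no filter. PCK2, the mitochondrial enzyme of gluconeogenesis, was at 0.33 [0.23 to 0.43], and CDKN1B, the cell cycle inhibitor p27, at 0.29 [0.20 to 0.37] with 1818 counts with PEN and 2249 with PEN-MUT. IRS1, an adaptor of the insulin receptor, was lowest at -0.29. FOXO1 and FOXO3 themselves stood at -0.14 and 0.04.

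Targets of the tumour suppressor p53 had a median of 0.10, with 19 of 26 above the median gene. PHLDA3, an AKT inhibitor, was at 0.50 [0.09 to 0.91] and BBC3, the BH3-only protein PUMA, at 0.47 [0.14 to 0.81]. CDKN1A, the p21 inhibitor and the best-known target, went against the list at -0.51 [-0.79 to -0.22] on 230.9 counts with PEN and 165.0 with PEN-MUT, as did PMAIP1 at -0.28. MDM2, which p53 induces and which degrades it, was at 0.01 on 7850 and 8049 counts. The 18 tested BCL2 family genes had a median of -0.06, with MCL1 lowest and BMF highest.

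Most nuclear genes of the mitochondrial respiratory chain lay a little above the median gene. Of 75 tested in complexes I to V, 69 were above it, with a median of 0.09 and quartiles of 0.05 and 0.12. NDUFB10, a subunit of complex I, was highest at 0.25 with 2395 counts with PEN and 2882 with PEN-MUT, and ATP5D, of the ATP synthase, lowest at -0.19. Replication-dependent histone genes had 46 of 49 above the median gene and a median of 0.13, with HIST1H4L at 0.43 and HIST1H3D at 0.34. None of these genes was past 1.5-fold. Their transcripts are short, with median lengths of 760 bases for the respiratory genes and 487 for the histones, against 3405 for all tested genes. The decile of genes with the shortest transcripts had a median difference of 0.048 and that with the longest -0.035. Relative to genes of like transcript length the medians were 0.04 for complex I, 0.06 for complexes II to V and 0.07 for histones, against 0.08, 0.10 and 0.13. Histone transcripts carry no poly(A) tail, and how RNA was selected for the libraries is not given in the sources used here.

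Genes of mitosis had 50 of 57 members above the median gene and a median of 0.08. KIF20A, a kinesin of cytokinesis, had 4840 counts with PEN, 6052 with PEN-MUT, 6074 with PEN-WT and 4342 with PEN-FFW (0.30 [0.25 to 0.35]), CDC25C, the phosphatase that starts mitosis, stood at 0.26 and NEK2 at 0.25. MKI67, the proliferation marker, was lowest at -0.09. Genes of DNA replication were nearer to the median gene, at a median of 0.04 over 56. Among regulators of the cycle CCND2 was at -0.31 on 41409 counts with PEN and 33931 with PEN-MUT, and CDKN1C at 0.52 [0.04 to 1.00] on 57.1 and 83.0. In the PEN-FFW library against PEN the medians were -0.11 for complex I, -0.20 for complexes II to V, -0.18 for histones and -0.05 for mitosis.

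**Figure D5:**
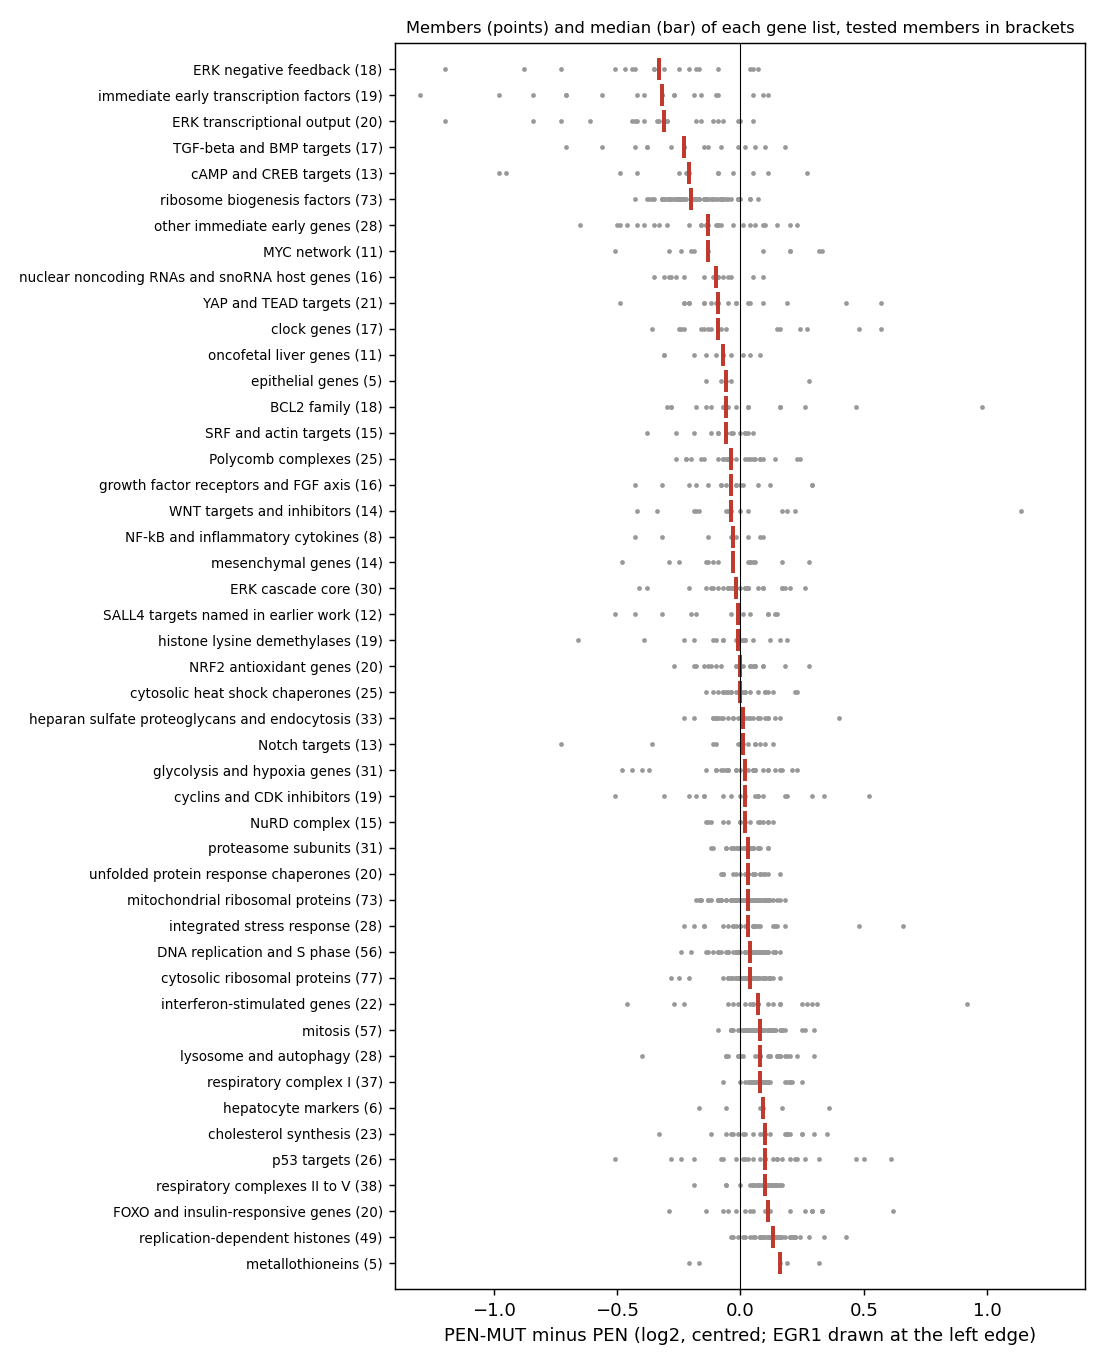
Log2 difference of PEN-MUT from PEN (x axis, centred on the median gene) for the tested members (points) and their median (red bar) in each of the 47 gene lists with at least 5 tested members, ordered by median. ERK negative feedback (-0.33), immediate early transcription factors (-0.32) and ERK output (-0.31) are lowest, and replication-dependent histones (0.13) and metallothioneins (0.16, 5 members) highest.

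Interferon-stimulated genes, which answer virus and foreign nucleic acid, had a median of 0.07 with 16 of 22 above the median gene. IFIT1, an RNA-binding antiviral protein, had 64.7 counts with PEN, 124.0 with PEN-MUT, 115.7 with PEN-WT and 98.8 with PEN-FFW (0.92 [0.50 to 1.35]), and TAP1, a peptide transporter of antigen presentation, stood at 0.31. IRF7, a transcription factor of the interferon response, had a difference of -0.46 with an interval that held 0. Lysosome and autophagy genes had 21 of 28 above the median gene (median 0.08), and genes of cholesterol synthesis 17 of 23 (median 0.10). Mevalonate kinase MVK stood at 0.35 and the lysosomal peptidase TPP1 at -0.40.

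Lists that report protein damage or chemical stress were near the median gene. The medians were 0.00 for 25 cytosolic heat shock chaperones, 0.03 for 20 chaperones of the unfolded protein response, 0.03 for 28 genes of the integrated stress response and -0.00 for 20 antioxidant genes under NRF2. None of these lists had a member past 1.5-fold except DDIT4, where 0.326% of all tested genes were at least 1.5-fold higher. Of the 33 heparan sulfate and endocytosis genes, which bear on the entry of basic peptides, the median was 0.01, with SDC2, a syndecan, at 0.40 [0.05 to 0.75] on 110.8 counts with PEN and 148.0 with PEN-MUT and EXTL2 at -0.23. Metallothioneins and their regulators had a median of 0.16 over 5 genes, which became -0.01 when a mean count of 200 was required.

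SALL4 had 1665 normalized counts with PEN, 1359 with PEN-MUT, 1291 with PEN-WT and 1168 with PEN-FFW, a difference of -0.31 [-0.42 to -0.21]. SALL1, a family member, was at -0.32 and SALL3 at -0.21, whereas SALL2 was at 0.08 with an interval that held 0. RBBP4 stood at 0.04 with 6773 counts with PEN and 7082 with PEN-MUT. The 15 NuRD genes had a median of 0.02 and lay between GATAD2A at -0.14 and RBBP7 at 0.13, with none past 1.5-fold. Of the genes reported elsewhere as SALL4 targets 12 of 20 were tested, and their median was -0.01. MYC at -0.51 and EGFR at -0.43 were the lowest. The 25 Polycomb genes had a median of -0.04.

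Reads in genes above the lowest deposited value numbered 37784093 with PEN and 32043544 with PEN-MUT, against 40717633 with PEN-WT and 27347377 with PEN-FFW, and no tested gene was at that lowest value in PEN or PEN-MUT. The median tested gene of PEN-MUT stood at 0.022 from that of PEN before centring, and that of PEN-WT at 0.03. Of the markers of the line, the oncofetal genes GPC3 (1250 counts with PEN, 1281 with PEN-MUT), IGF2BP1 (9560 and 8505) and LIN28B (2868 and 3003) were expressed, and AFP was near the lowest value with 9.24 and 11.0. Of the hepatocyte markers APOB, TTR, SERPINA1, HNF4A and FOXA2 were listed at the lowest value in all 4 libraries, as were KRT8 and KRT18, while ALB had 122 and 139 counts. Vimentin (VIM), a mesenchymal filament, had 82972 and 86516. The leukocyte markers CD3E and CD14 and the endothelial markers PECAM1, VWF and CDH5 were at the lowest value in all 4, and PTPRC, a leukocyte surface phosphatase, had 331 and 373. Median differences by chromosome lay between -0.026 and 0.023, and by decile of transcript GC content between -0.016 and 0.027.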

How the data were processed

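Per the labels, the 4 RNA libraries held paired-end reads and the alignment to hg19 was made with STAR. The submitters' processing notes name STAR 2.4.0i beside featureCounts 1.5.0-p1. For the annotation, the strand setting and the normalization method, the sources used here give nothing. The authors deposited log2 values for 23710 genes. Undoing the log gave, within 0.1 read, whole reads times a factor per library (0.840 for PEN, 1.00 for PEN-MUT), with products under 5 set to 5, whose log2 is 2.32. Calling these normalized counts rests on that pattern.

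Differences are plain log2 values of PEN-MUT minus PEN, centred on the median tested gene, a gene being tested if it averaged 50 or more normalized counts over the 4 libraries. Genes past 1.5-fold (0.585 in log2) and past 2-fold were counted. Intervals are exact binomial ones from the recovered reads. With 1 library per peptide no test was run. Calculations used Python 3.11.15, numpy 2.4.6, pandas 2.3.3 and scipy 1.17.1, and the calling rule was tested on simulated data. The simulation drew counting error only, which is narrower than the spread between these libraries, so it does not measure the error of the calls.

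Named genes are those past 2-fold, the 12 lowest and 12 highest with a count of at least 100 and the 10 each way with at least 1000 (small RNA and clone names left out), SALL4, RBBP4, the 3 members of each list farthest from 0, and members of the early, feedback, ligand and MYC lists. Other list members were picked after their values were seen. A few list members are counted in their lists but not reported here by name. The members and lists were chosen with earlier results of these data known. Positions, biotypes, GC content and lengths come from GENCODE 44 lifted to GRCh37, which matched 20574 genes by symbol and 1567 by an older symbol. The other 3 samples of the series (2 chromatin immunoprecipitations and an input) are not analysed here.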

Additional observations from a re-analysis of the deposited data

How the results depend on the processing

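The counts of genes past a threshold depended on the filter on low values. With a mean count of at least 10, 355 genes were at least 1.5-fold lower and 269 higher, and 77 were at least 2-fold lower and 58 higher. With no filter but a value above the lowest deposited one in both libraries, the counts were 378 lower and 330 higher at 1.5-fold and 60 lower and 64 higher at 2-fold. With a mean count of at least 200 they were 16 lower and 11 higher at 1.5-fold and 2 lower and 0 higher at 2-fold. With 10 added to each count before the log, 44 genes were lower and 27 higher at 1.5-fold, and 2 lower and 0 higher at 2-fold. EGR1 and DUSP6 stayed past 2-fold under all 11 alternatives. Scaling by the total, by a trimmed mean of log ratios or not at all, adding 1 to each count, filtering on PEN and PEN-MUT alone, and working relative to genes of like GC content or, chosen after the data were seen, like transcript length, kept each 1.5-fold count within 1.5 times its main value. Of the 225 genes named by the rule, of which 168 are left with a mean count of at least 200, 3 left their counting interval in a setting. They are HIST1H3D (0.29 relative to genes of like transcript length), HSP90AA1 (-0.12 without centring, -0.15 by transcript length) and MALAT1 (-0.32 and -0.30 in these settings), and their sign stayed. Of the 47 list medians, 2 of at least 0.1 turned: metallothioneins were at -0.01 with a mean count of at least 200 and the MYC network at 0.00 relative to genes of like transcript length. Medians nearer to 0 changed sign as well. Hepatocyte markers went from 0.09 to -0.06 with a mean count of at least 200, and mitochondrial ribosomal proteins from 0.03 to -0.01 by transcript length. Mesenchymal genes went from -0.03 to 0.02 or 0.03 under 3 filters, and the reported SALL4 targets and the lysine demethylases, both at -0.01, were at 0.01 without centring, the former also at 0.01 or 0.02 under 3 filters. A further 21 values over 12 lists moved by more than their counting error, 9 of them without centring and 8 by transcript length, and the others were FOXO genes at 0.20 under both looser filters and the MYC network at -0.05 with a mean count of 200 and -0.02 by GC content. The causes were not tested. No paired analysis was possible because each peptide had 1 library, and for the same reason no library could be left out. Below about 100 counts the counting error was close to the whole spread of differences.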

Other observations

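In a few genes PEN-MUT differed from the other 3 libraries together, and these were chosen after their values were seen. ZBTB32, a zinc finger repressor of lymphocytes, had 50 normalized counts with PEN-MUT against 94.1 with PEN, 92.4 with PEN-WT and 125.6 with PEN-FFW. IKZF4, a lymphoid zinc finger factor, had 39.0 against 71.4, 79.2 and 105.2, and SLC7A8, an amino acid transporter, 42.0 against 73.1, 90.0 and 65.5. All of these are low counts, and their differences from PEN were -0.93 [-1.44 to -0.44], -0.89 [-1.48 to -0.33] and -0.82 [-1.39 to -0.27]. NT5E, the ectoenzyme that makes adenosine from AMP, lay the other way, with 115.0 counts against 84.0, 76.8 and 67.4 (0.43 [0.03 to 0.83]).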
